A study of Mus musculus with 11 samples.

Results

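The 6 libraries described here, of 11 in the series, hold RNA labelled as MC38 tumour and were taken by their titles, which end in the word tumor. MC38 is a mouse colon carcinoma line that is widely grafted into mice to study tumour immunity. In 3 libraries, numbered 1, 2 and 6 in the titles, the cells carried a control hairpin (shNC, genotype label WT). In the other 3, numbered 1, 2 and 3, they carried a short hairpin RNA against Fgf21 (shFgf21, genotype label FGF21 Knockdown). All 6 share the labels Tumor for tissue, MC38 for cell line and mesenchymal cell for cell type. The remaining 5 libraries of the series are labelled as T cells sorted out of shNC and shFgf21 tumours. The labels give no host strain, age, hairpin sequence or clone number. They also do not say that libraries of 1 group came from separate animals or cultures, so p-values reflect the spread of these libraries alone, and that spread may be technical. The comparison asks how the transcripts of the tumour libraries differ where the hairpin targets Fgf21.

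FGF21 is a secreted hormone of the fibroblast growth factor family, best known from liver and fat, where it shifts metabolism during fasting. It signals through FGF receptors, mainly FGFR1, and needs the membrane protein beta-klotho (Klb) as co-receptor. Its gene is induced by the integrated stress response, in which the factor ATF4 also switches on genes of amino acid synthesis and transport. Short hairpin RNAs are processed by the cell's microRNA machinery and guide the cutting of a matching messenger RNA.

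Total counts ran from 14968855 to 19099350 per library, and 14950 genes passed the filter on low counts and were tested. These genes held at least 99.8% of the counts of each library. Log2 CPM (counts relative to the TMM-scaled library size) correlated at 0.960 to 0.978 within shNC, at 0.975 to 0.982 within shFgf21 and at 0.962 to 0.981 between the groups, so pairs across the groups were as alike as pairs within shNC. Genes are not independent of each other, and the values are given as a description. The shNC library numbered 1 stood apart on the first principal component, at -36.3 where the other 5 lay between 0.128 and 20.8. On the second component the shNC libraries 2 and 6 lay at -26.0 and -10.6, and the other 4 between 3.61 and 14.3.

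**Figure D1:**
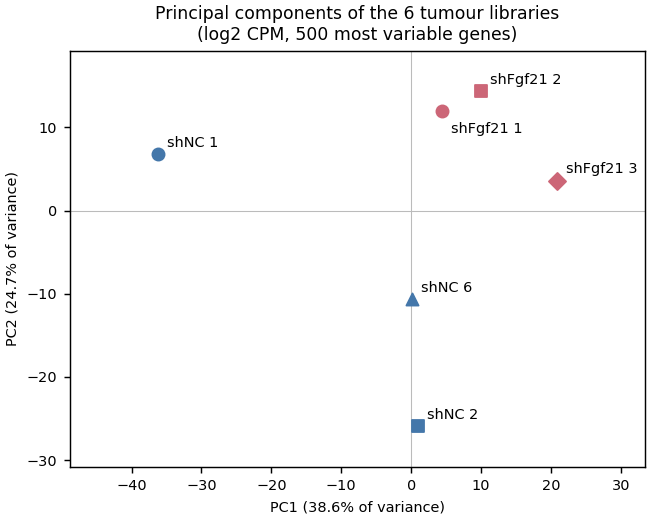
Principal components of log2 CPM over the 500 most variable genes, with PC1 on the horizontal and PC2 on the vertical axis and 1 point per tumour library (blue shNC, red shFgf21). shNC 1 lies alone at -36.3 on PC1, and shNC 2 and shNC 6 lie at -26.0 and -10.6 on PC2, away from the 3 shFgf21 libraries.

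Cell type markers were read in the same libraries. Lymphocyte and neutrophil markers were low: the 17 T cell markers together reached 1.49 to 3.24 CPM in shNC and 1.28 to 1.93 CPM in shFgf21, and the 7 neutrophil markers 0.151 to 0.213 CPM in shNC and 0 to 0.121 CPM in shFgf21. The T cell receptor chain Cd3e had 0 counts in all 6 libraries, and Ptprc, which encodes CD45, was at 1.04, 0.251 and 0.266 against 0, 0.261 and 0.427 CPM. The 12 macrophage and monocyte markers summed to 36.2 to 52.8 CPM in shNC and 38.3 to 43.97 CPM in shFgf21, most of it from Cd14, a receptor for bacterial lipopolysaccharide, at 26.99, 24.9 and 26.7 against 30.3, 28.7 and 25.7 CPM, while Csf1r, the defining growth factor receptor of macrophages, was at 0.414, 0.553 and 0.532 against 0.483, 0.717 and 0.122 CPM. The 14 epithelial markers summed to 12.1 to 18.5 CPM in shNC and 9.45 to 10.4 CPM in shFgf21, and Epcam had counts only in shNC 1, at 0.552 CPM. The 6 keratinocyte markers summed to 61.98, 76.4 and 60.2 CPM in shNC and 59.9, 44.8 and 40.9 CPM in shFgf21. Of these only Krt14 reached a mean of 5 CPM. Mesenchymal genes were abundant, with Vim (vimentin) at 3459.7, 2938 and 3272 against 3744, 4571 and 3869 CPM. The 8 endothelial markers summed to 22.6, 5.33 and 3.03 CPM in shNC and 4.05, 4.69 and 3.29 CPM in shFgf21, so shNC 1 lay far above the other 5 libraries. The sum over the 8 pericyte and fibroblast markers was 2674, 2631 and 2634 CPM in shNC and 2172, 2043 and 2053 CPM in shFgf21, most of it from Dcn, the matrix proteoglycan decorin, and the groups did not overlap. Fewer cells of a type and less RNA per cell cannot be told apart in such bulk libraries.

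Fgf21 (ENSMUSG00000030827, chr7:45613886-45615490, mm10) was barely detected. It had 0, 2 and 1 counts in the shNC libraries and 0 counts in each shFgf21 library, where 3 counts, the limit taken for a count of 0, correspond to 0.181, 0.195 and 0.183 CPM. The knockdown of its target could therefore not be checked from these counts, and the groups rest on the labels. Of the receptors, only Fgfr1 was well expressed, at 422, 379.6 and 312 CPM in the shNC libraries and 359.7, 327 and 332 CPM in the shFgf21 libraries, and the groups overlapped (-0.13 ± 0.15 log2, SE; edgeR adjusted p = 0.937). Klb was at 0.207, 0.0502 and 0 against 0.242, 0.130 and 0.0610 CPM, and Fgfr4 had counts only in shNC 1, at 0.138 CPM. Of 15 listed FGF ligands, receptors and adaptors, 8 were tested and none passed the threshold, an adjusted p of 0.05, which 0.0334% of all tested genes passed. Fgf2, a ligand named here after its values were seen, had 9, 9 and 14 against 9, 80 and 55 counts, high in shFgf21 2 and 3 only (edgeR adjusted p = 0.640). The feedback genes that ERK signalling induces, phosphatases and Sprouty proteins among them, gave 0 of 14 tested genes past the threshold and a median log2 fold change of 0.13, which was 0.042 without shNC 1. Spred2, an inhibitor of the RAS and ERK pathway, was at 90.4, 76.8 and 88.9 against 112, 110.2 and 98.8 CPM, without overlap but short of the threshold (0.33 ± 0.13 log2, edgeR adjusted p = 0.773).

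Across all genes, the groups differed little. By edgeR's quasi-likelihood test with Benjamini-Hochberg adjustment, 4 genes rose in shFgf21 (0.0268% of those tested) and 1 fell (0.00669%). They were Abl1, S100a3 and the predicted genes Gm20716 and Gm41787, all higher, and the predicted gene Gm45713, which was lower. At an unadjusted p under 0.05 there were 390 higher (2.61%) and 540 lower genes (3.61%). The groups did not overlap for 808 higher genes (5.4% of those tested) and 926 lower genes (6.19%). The median log2 fold change over all tested genes was -0.01, with quartiles of -0.18 and 0.15. The count of genes past the threshold depended on the test: DESeq2 called 42 higher and 73 lower, and edgeR called none without shNC 6 or without shFgf21 3.

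**Figure D2:**
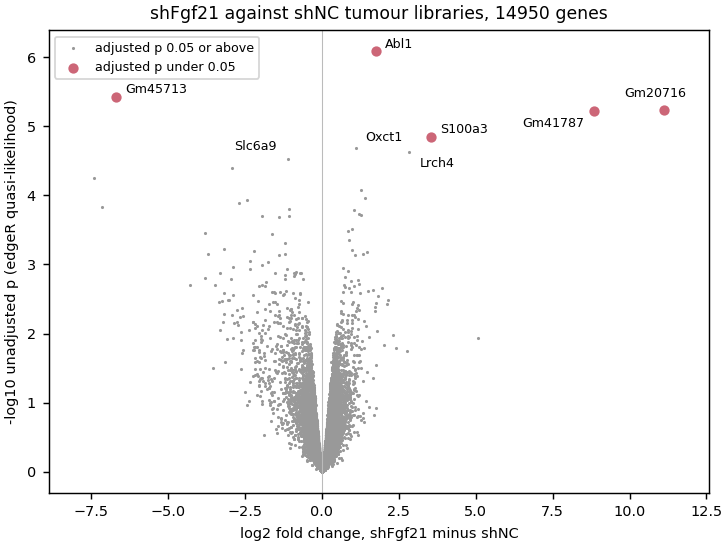
All 14950 tested genes, with the log2 fold change (shFgf21 minus shNC) on the horizontal axis and -log10 of the unadjusted edgeR p on the vertical axis. The 5 genes past the adjusted threshold are red, and Oxct1, Lrch4 and Slc6a9 lie just below it.

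Abl1 (ENSMUSG00000026842, chr2:31688376-31804227), which encodes the ABL tyrosine kinase known for its fusion to BCR in leukaemia and for its work on the actin cytoskeleton, had the smallest p of all tested genes. It stood at 45.8, 42.9 and 51.4 CPM in the shNC libraries and 161, 140.2 and 172 CPM in the shFgf21 libraries. The lowest shFgf21 library was above the highest shNC library by a wide margin, and the spread within each group was small. The means were 46.7 ± 4.32 and 158 ± 16.3 CPM (SD over 3 libraries), which is 1.76 ± 0.14 in log2 fold change (SE, edgeR adjusted p = 0.0123). No gene that overlaps Abl1 in the table held more than 7 counts over the 6 libraries. The adjusted p moved to 0.0535 without shNC 6 and to 0.106 without shFgf21 3, with log2 fold changes of 1.84 and 1.70. Its paralog Abl2 was at 449, 131 and 244 against 414, 384 and 312 CPM and overlapped between the groups (0.43 ± 0.37 log2, edgeR adjusted p = 0.927). None of the other 11 genes listed as ABL kinases and partners passed, and the list's median log2 fold change was -0.01.

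S100a3 (ENSMUSG00000001021, chr3:90584659-90602702), a small calcium-binding protein known mainly from the hair cuticle, was nearly off in shNC. It had 19, 10 and 33 against 272, 173 and 222 counts, which is 1.31, 0.502 and 1.76 against 16.4, 11.3 and 13.5 CPM. All 3 shFgf21 libraries lay far above all 3 shNC libraries, and the ratio of the group means was 11.6. On the log2 scale the difference was 3.53 ± 0.40 (SE, 3 libraries a group, edgeR adjusted p = 0.0420), and the direction held in all 6 leave-outs although the gene passed in 1 of them, without shNC 2. S100a14, tested at low level and named after its values were seen, stood at 0.621, 0.452 and 0.585 against 1.81, 1.04 and 1.40 CPM without overlap (edgeR adjusted p = 0.589). S100a1, a calcium sensor of muscle and other cells, was at 22.1, 21.5 and 22.5 against 31.2, 25.8 and 29.04 CPM, also without overlap and also short of the threshold (edgeR adjusted p = 0.737). Of 16 listed S100 genes 11 were tested, 9 were on the higher side and 4 did not overlap (5.4% of all tested genes), with a median log2 fold change of 0.16. Over the leave-outs that median ran from 0.10 without shFgf21 1 to 0.27 without shNC 6. The abundant S100a4, an effector of cell motility, was at 648, 608 and 673 against 876, 625 and 754 CPM and overlapped between the groups, with shFgf21 1 the highest.

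The start regions of these 2 genes are shown because they are the named protein-coding genes that passed. The sequences are the 250 bases before annotated start sites in RefSeq (GRCm38.p6), both on the plus strand and written 5′ to 3′, and capitals mark 3 motifs searched on both strands. A TATA box was taken as the letters TATAAA. The CCAAT box was searched by those letters, and the GC box as GGGCGG. None of the matches shown overlaps another. RefSeq lists 2 start sites for Abl1, both inside the interval given above, and 4 for S100a3, and the gene counts do not say which one was used.
Abl1 start 1, chr2:31759689-31759938: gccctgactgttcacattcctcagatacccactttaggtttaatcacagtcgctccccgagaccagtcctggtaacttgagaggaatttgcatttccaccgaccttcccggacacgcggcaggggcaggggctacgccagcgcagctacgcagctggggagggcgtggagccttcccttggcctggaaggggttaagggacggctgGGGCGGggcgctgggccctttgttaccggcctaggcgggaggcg
S100a3 start 1, chr3:90584409-90584658: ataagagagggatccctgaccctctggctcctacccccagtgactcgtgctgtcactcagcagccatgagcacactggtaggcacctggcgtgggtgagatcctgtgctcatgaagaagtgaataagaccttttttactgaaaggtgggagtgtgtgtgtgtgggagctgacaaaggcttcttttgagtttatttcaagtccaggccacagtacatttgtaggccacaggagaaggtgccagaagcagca
S100a3 start 3, chr3:90588313-90588562: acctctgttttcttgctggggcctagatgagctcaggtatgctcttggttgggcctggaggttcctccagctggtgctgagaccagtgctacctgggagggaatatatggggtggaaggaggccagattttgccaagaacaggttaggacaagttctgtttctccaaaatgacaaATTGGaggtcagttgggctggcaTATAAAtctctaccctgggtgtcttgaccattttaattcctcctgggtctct
The Abl1 window holds 16 CG dinucleotides and 63.2% G and C, against medians of 6 and 52.4% over the 32851 RefSeq windows of this length. It has a GC box, as do 32.7% of all windows. The S100a3 windows shown, at starts 1 and 3, hold 2 and 0 CG dinucleotides. The one at start 3 has a TATA box, as do 12.4% of all windows, and a CCAAT box, as do 33.8%. Of the S100a3 windows not shown, start 2 holds 2 CG dinucleotides and none of these motifs. Start 4 holds 5 CG dinucleotides and a GC box. The motif matches are descriptions of the letters only.

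The 3 predicted genes that passed all had counts in 1 group and next to none in the other. Gm20716 (chr2:168180986-168230364) had 0, 0 and 0 against 401, 137 and 259 counts, and its level in shFgf21 was at least 94.6-fold higher than the limit that a count of 0 allows per shNC library (edgeR adjusted p = 0.0224). The gene runs through both Adnp, which encodes a chromatin protein, and Dpm1, which encodes a subunit of an enzyme of protein mannosylation, on the same strand. Adnp was at 155, 141 and 147 against 113, 151 and 150.0 CPM and Dpm1 at 35.7, 24.2 and 20.9 against 24.6, 26.7 and 22.2 CPM. The 3 genes together were at 190.5, 165 and 168 against 162, 186 and 188 CPM, which overlapped between the groups, and Gm20716 held 4.79% to 15% of that sum in shFgf21. The reads of Gm20716 and of the genes inside it can therefore not be told apart in this table.

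Gm45713 (chr7:45125922-45136231) showed the reverse, with 49, 54 and 49 against 1, 0 and 0 counts. The count ratio of shNC to shFgf21 was 138, with an exact 95% interval of counting error of 24.4 to 5487 (edgeR adjusted p = 0.0224). It runs through Rpl13a, which encodes a ribosomal protein, and Flt3l, which encodes the FLT3 ligand, again on the same strand. Flt3l itself was at 8.63, 9.25 and 7.61 against 8.09, 8.66 and 7.38 CPM, and Gm45713 held at most 0.593% of the sum of the 3 genes in any library. Gm41787, listed as a long non-coding gene with no overlapping gene in the table, had 0, 0 and 0 against 56, 45 and 64 counts, at least 19.8-fold higher in shFgf21 than the per-library limit (edgeR adjusted p = 0.0224). In each of these 3 cases every library of 1 group was on the same side and the contrast was between detected and all but not detected. Of the 6 leave-outs, Gm20716 missed the threshold in 3 and Gm41787 and Gm45713 in 4 each, with edgeR adjusted p-values of 0.0535 to 0.189.

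Below the threshold, the genes that came next on the higher side were ranked by p among genes without overlap and with a mean of 10 CPM or more. Oxct1, the enzyme that lets cells use ketone bodies, was at 90.7, 80.5 and 99.1 against 186, 211 and 191 CPM, 1.12 ± 0.13 on the log2 scale (edgeR adjusted p = 0.0509). As the rank required, every shFgf21 library was above every shNC library, and the spread within each group was small. Of the 8 tested genes of ketone body metabolism, Oxct1 alone had an unadjusted p under 0.05 (6.22% of all tested genes). Without overlap, 2 of the 8 were higher and 1 lower (5.4% and 6.19% of all tested genes). Il2rg, the common gamma chain of several interleukin receptors, stood at 35.2, 24.8 and 27.8 against 76.1, 76.5 and 58.1 CPM (edgeR adjusted p = 0.113). Amigo2, an adhesion protein of neurons and tumour cells, stood at 43.2, 36.1 and 57.05 against 96.8, 144 and 121 CPM (edgeR adjusted p = 0.135). Itgb7, an integrin chain of gut-homing leukocytes, was at 184, 129 and 129.6 against 305, 311 and 300.1 CPM (edgeR adjusted p = 0.139). In these 3 genes the lowest shFgf21 library was above the highest shNC library, which the rank also required. Met, the receptor of hepatocyte growth factor, was at 18.1, 19.1 and 13.8 against 32.7, 47.1 and 38.3 CPM (edgeR adjusted p = 0.139), while the other EGF family and Met list genes were split, 4 higher and 6 lower. Mesd, a chaperone of LRP receptors, stood at 39.7, 22.4 and 30.8 against 74.8, 78.5 and 69.8 CPM. The remaining genes of the rank, Lurap1l, Pcgf5, Papola, Aldh3a1, Dock10, Ccl2 and Csf2, had log2 fold changes from 0.85 (Pcgf5) to 1.47 (Dock10) and edgeR adjusted p-values from 0.201 to 0.297. Itgb7 and Lrch4 passed when shNC 1 was left out, with edgeR adjusted p-values of 0.0360 and 0.0170.

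Lrch4, a leucine-rich repeat protein of the same rank, shares its locus with another listed gene. It was at 7.04, 2.46 and 3.78 CPM in the shNC libraries and 27.5, 34.7 and 30.6 CPM in the shFgf21 libraries, 2.82 ± 0.35 on the log2 scale (edgeR adjusted p = 0.0509). Gm20605 covers almost the same interval on the same strand and was at 23.7, 48.1 and 52.1 against 37.5, 25.8 and 20.8 CPM. The sum of both was 30.8, 50.6 and 55.9 against 65.0, 60.5 and 51.4 CPM, which overlapped between the groups. Lrch4 held 22.9%, 4.87% and 6.76% of that sum in shNC and 42.4%, 57.4% and 59.6% in shFgf21, so the share moved more than the sum.

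**Figure D3:**
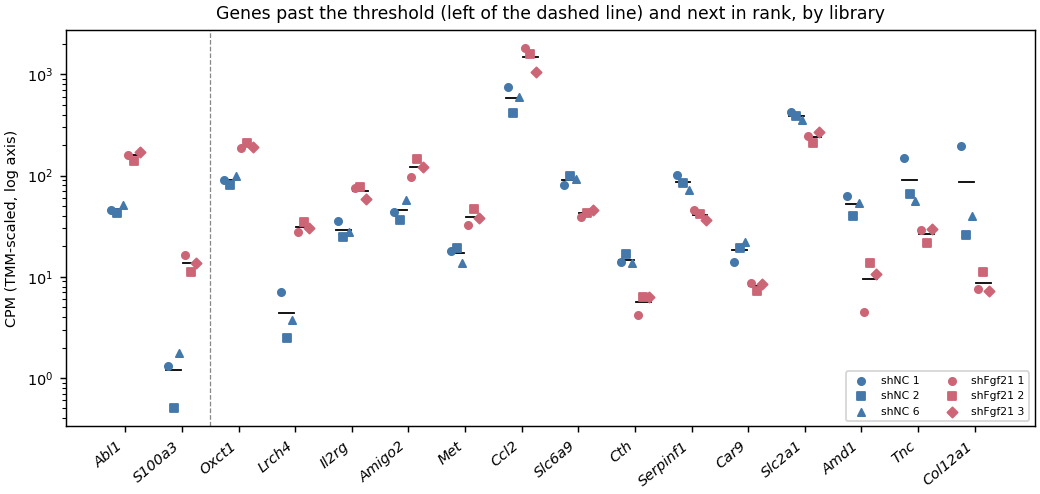
TMM-scaled CPM on a log axis for 16 genes, with 1 point per library (blue shNC, red shFgf21) and a bar at each group mean. Abl1 and S100a3, left of the dashed line, passed the threshold, and the others, in which the groups do not overlap, did not.

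On the lower side, the gene with the smallest p that has a name was Slc6a9, a glycine transporter. It was at 81.2, 98.99 and 92.5 CPM in the shNC libraries and 38.7, 42.2 and 45.9 CPM in the shFgf21 libraries, or -1.10 ± 0.14 on the log2 scale (SE, edgeR adjusted p = 0.0554). B4galt2, which overlaps it on the other strand, was at 39.3, 40.6 and 52.6 against 63.9, 40.98 and 44.9 CPM and did not share its direction. Serpinf1, the secreted anti-angiogenic factor PEDF, stood at 100.3, 84.4 and 72.1 against 45.9, 41.6 and 36.1 CPM, and Sned1, a matrix protein, at 63.7, 85.97 and 99.6 against 39.99, 39.3 and 38.98 CPM, both with an edgeR adjusted p of 0.139. Sned1 and Car9, described below, each overlap a gene on the other strand (Mterf4 and Gm12454), whose reads could not be told apart if strand was not used in counting. Slc4a8, a bicarbonate transporter, was at 34.9, 48.5 and 53.96 against 25.7, 24.8 and 26.1 CPM. The other genes of the rank that belong to no list below, Zbtb5, Palld and Gpr153, had log2 fold changes of -0.91, -0.89 and -0.92, with edgeR adjusted p-values of 0.396 to 0.402. None of the genes on the lower side of the rank passed the threshold, and Sned1 passed when shNC 1 was left out (edgeR adjusted p = 0.0391).

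Amd1, which encodes the decarboxylase that feeds spermidine and spermine synthesis, was in the same rank. It was at 63.2, 39.8 and 53.9 CPM in the shNC libraries and 4.47, 13.8 and 10.6 CPM in the shFgf21 libraries, -2.45 ± 0.37 on the log2 scale (edgeR adjusted p = 0.136). Its near-identical copies had higher means in shFgf21, with Amd2 at 20.5, 12.5 and 18.1 against 19.995, 26.7 and 26.2 CPM and Amd-ps3 at 28.8, 16.9 and 21.5 against 24.2, 34.1 and 31.8 CPM. Over these 3 genes and the pseudogenes Amd-ps4 and Amd-ps1 the sum was 113, 69.6 and 93.97 against 49.4, 75.6 and 69.1 CPM, which overlapped, and Amd1 held 56.0% to 57.4% of it in shNC but 9.05% to 18.3% in shFgf21. How much of the difference lies in Amd1 alone is uncertain, since the counting program may split such reads. Azin1, which stabilises the polyamine enzyme ornithine decarboxylase, was at 299, 151 and 228 against 359, 371 and 284 CPM (edgeR adjusted p = 0.783), and 0 of the 11 tested polyamine genes passed.

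**Figure D4:**
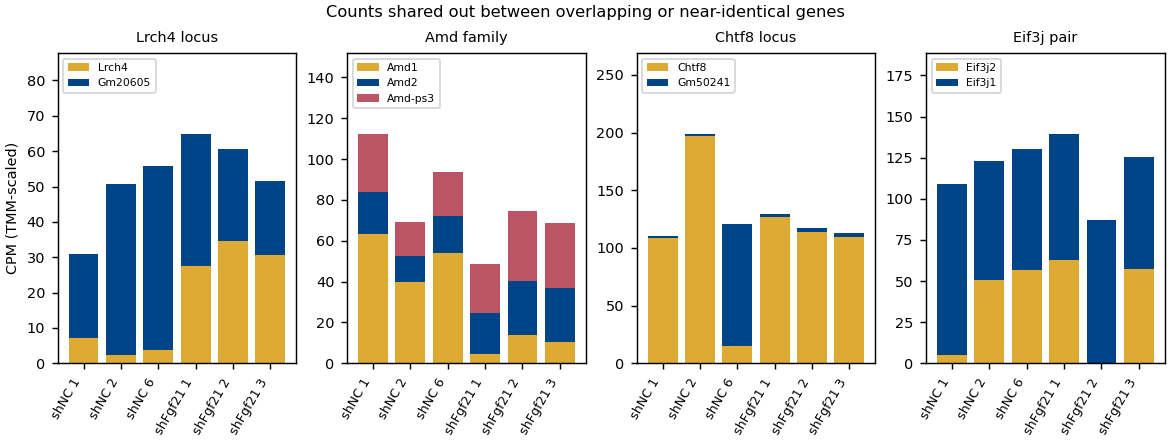
TMM-scaled CPM per library of genes that overlap each other or are near-identical copies, stacked so that the bar height is their sum. In the Lrch4 and Amd sets the split differs between the groups (Lrch4 holds 4.87% to 22.9% in shNC and 42.4% to 59.6% in shFgf21), and in the Chtf8 and Eif3j sets it differs in single libraries.

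Genes of serine, glycine and cysteine metabolism were mostly lower in shFgf21. Of 17 listed genes 16 were tested, 14 were on the lower side and 8 of these had no overlap (6.19% of all tested genes were lower without overlap), while none passed the threshold. At an unadjusted p under 0.05 there were 9 lower genes of 16, where 3.61% of all tested genes were lower at that level. The list's median log2 fold change was -0.37, against -0.01 over all genes. By library, the median over the list relative to the shNC mean was 0.03, 0.03 and -0.12 in shNC and -0.33, -0.53 and -0.25 in shFgf21. Beside Slc6a9, Cth, which makes cysteine from cystathionine, was at 14.01, 16.8 and 13.6 against 4.23, 6.38 and 6.34 CPM (-1.39 ± 0.23 log2, edgeR adjusted p = 0.139). Aldh1l2, a mitochondrial folate enzyme, was at 117, 148 and 108 against 64.5, 76.9 and 86.9 CPM (edgeR adjusted p = 0.454). Psph, the last enzyme of serine synthesis, was at 45.3, 41.8 and 37.5 against 27.7, 28.5 and 31.7 CPM (edgeR adjusted p = 0.589). For each of these, taken from the list by smallest p, the highest shFgf21 library was below the lowest shNC library.

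The wider set of integrated stress response targets had 11 of 15 genes on the lower side and 4 without overlap (6.19% of all tested genes), with a median of -0.33 and none past the threshold. Trib3, a pseudokinase that this response induces, stood at 45.8, 88.9 and 55.2 against 32.4, 29.4 and 41.4 CPM (-0.88 ± 0.25 log2, edgeR adjusted p = 0.593). Asns, the asparagine synthetase, was at 159.8, 175 and 132 against 90.6, 117 and 117 CPM, and Nupr1, a stress-induced chromatin protein, at 139, 219 and 186 against 119.5, 114 and 151 CPM, where the groups overlapped. For Trib3 and Nupr1 the highest level was that of shNC 2, and without that library the list's median was -0.11. Genes of the unfolded protein response, a related branch that senses the endoplasmic reticulum, had a median of 0.05, and Hspa5, its main chaperone, was at 1534, 1333 and 1424 against 1144, 1171 and 1278 CPM (edgeR adjusted p = 0.830).

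Hypoxia and glycolysis genes lay on the same side. Of 14 hypoxia response genes 11 were lower, 6 of them without overlap (6.19% of all tested genes) and with an unadjusted p under 0.05 (3.61% of all), and the median log2 fold change was -0.23. Car9, a carbonic anhydrase and classic HIF target, was at 13.9, 19.4 and 22.3 against 8.70, 7.23 and 8.48 CPM (-1.19 ± 0.22 log2, edgeR adjusted p = 0.263). Bnip3, a mitophagy receptor, stood at 293, 289 and 309 against 145, 209 and 246 CPM, Ankrd37 at 6.28, 13.1 and 9.95 against 4.11, 5.73 and 6.22 CPM and Ndrg1 at 907, 775 and 790.5 against 624, 601 and 689 CPM. In each of these 4 genes, taken from the list by smallest p, all shFgf21 libraries were below all shNC libraries. None of them passed (edgeR adjusted p = 0.263 to 0.690). Of 15 glycolysis genes 12 were lower, 5 of them without overlap (6.19% of all tested genes), with a median of -0.19. Slc2a1, the glucose transporter GLUT1, was at 425, 389.7 and 351 against 248, 209.8 and 271 CPM (-0.68 ± 0.15 log2, edgeR adjusted p = 0.396). Aldoa and Gpi1, enzymes of the upper pathway, were at 843, 1146 and 842 against 757, 564 and 689 CPM and 444, 531 and 454 against 353, 366 and 374 CPM. Gapdh, of the same list, was at 27.3, 56.7 and 56.1 against 24.1, 20.6 and 30.8 CPM, where the groups overlapped (edgeR adjusted p = 0.662). The medians of both lists kept their sign in all 6 leave-outs, within -0.31 to -0.21 for hypoxia and -0.28 to -0.12 for glycolysis.

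Interferon gamma targets were higher in shFgf21 on average, with shNC 2 as the low library. All 15 tested interferon gamma inducible GTPases and regulators had a higher mean in shFgf21, 5 of them without overlap (5.4% of all tested genes were higher without overlap), and the median log2 fold change was 0.59. None passed the threshold. Irf1, a transcription factor that interferon gamma induces, was at 231, 117 and 193 against 323, 315 and 309 CPM (0.81 ± 0.23 log2, edgeR adjusted p = 0.588). Tgtp1 and its neighbour and near copy Tgtp2, immunity-related GTPases, were at 261, 122 and 208 against 392, 465 and 298 CPM and 47.1, 22.96 and 39.3 against 63.4, 85.8 and 53.02 CPM, and reads may be split between the copies. Gbp2, a guanylate-binding protein, was at 812, 309 and 517 against 1007, 978 and 787 CPM, where shNC 1 reached into the shFgf21 range. The library medians were 0.47, -0.76 and 0.18 in shNC and 0.72, 0.86 and 0.49 in shFgf21, so shNC 2 was the lowest and shNC 1 lay close to shFgf21 3. The leave-outs gave list medians from 0.27 without shNC 2 to 0.90 without shNC 1.

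Library shNC 2 was also the lowest for antigen presentation. For MHC class II, 7 of 8 genes were higher and 5 did not overlap (5.4% of all tested genes), with a median of 0.97. Ciita, the master regulator of the class, was at 8.14, 2.36 and 10.96 against 16.9, 13.9 and 14.5 CPM, and the class chains H2-Ab1 and H2-Eb1 were at 61.3, 13.4 and 58.4 against 119, 76.6 and 68.8 CPM and 63.6, 8.49 and 49.6 against 106, 90.5 and 68.5 CPM, with edgeR adjusted p-values of 0.783, 0.831 and 0.841. The summed level was 579, 107 and 450.0 CPM in shNC and 844, 776 and 591 CPM in shFgf21, with shNC 2 far below every other library. Without it the list's median was 0.57. Of 15 class I and immunoproteasome genes 13 were higher, with a median of 0.26 and leave-out medians from 0.091 without shNC 2 to 0.47 without shNC 1. At an unadjusted edgeR p under 0.05, 2 were higher and 2 lower (2.61% and 3.61% of all tested genes). Without overlap, 1 was higher and 1 lower (5.4% and 6.19% of all tested genes). Psmb8, an immunoproteasome subunit, was at 131, 88.6 and 111 against 207, 154 and 141 CPM without overlap (edgeR adjusted p = 0.670). Cd274, the checkpoint ligand PD-L1, stood at 54.5, 22.6 and 33.9 against 59.6, 78.4 and 47.2 CPM, with shNC 1 inside the shFgf21 range (edgeR adjusted p = 0.795). The macrophage and monocyte marker sum given above was highest in shNC 1 and lowest in shNC 2. The dendritic cell markers summed to 9.35 to 15.9 CPM in shNC and 12.99 to 16.4 CPM in shFgf21. Only 2 of these 7 markers passed the filter on low counts, and only Zbtb46 reached a mean of 5 CPM. The part of macrophages, monocytes and dendritic cells in the MHC values was not tested.

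Antiviral genes that type I interferon induces leaned the other way. Of 23 genes 19 were lower, 5 without overlap (6.19% of all tested genes), and 4 were higher, 1 without overlap (5.4%). The list's median was -0.33, and none of its genes passed the threshold. Oasl2, an oligoadenylate synthetase-like protein, was at 118, 122 and 125 against 88.02, 62.5 and 73.8 CPM (-0.70 ± 0.15 log2, edgeR adjusted p = 0.396). Mx2 was at 10.01, 12.6 and 7.88 against 6.10, 6.19 and 5.06 CPM and Usp18, which restrains interferon signalling, at 20.6, 21.004 and 17.1 against 11.5, 15.2 and 7.63 CPM, while Stat2 was at 83.9, 71.3 and 83.3 against 65.7, 64.4 and 56.6 CPM. The library medians were 0.19, -0.07 and -0.07 in shNC and -0.14, 0.06 and -0.81 in shFgf21, so shFgf21 3 was far below the rest, and without it the list's median was -0.05.

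Chemokines and cytokines that attract myeloid cells were higher for 9 of 13 tested genes, 5 of them without overlap (5.4% of all tested genes) and with an unadjusted p under 0.05 (2.61% of all). Ccl2, which draws monocytes, was at 753, 415 and 598 CPM in the shNC libraries and 1811, 1576 and 1055 CPM in the shFgf21 libraries (1.33 ± 0.26 log2, edgeR adjusted p = 0.297). Its relative Ccl7 was at 395, 189 and 194 against 559.6, 640.4 and 436 CPM (edgeR adjusted p = 0.577). Cxcl2, which draws neutrophils, stood at 84.3, 39.998 and 43.7 against 115, 99.6 and 88.04 CPM, and Csf2, the growth factor GM-CSF, at 10.9, 8.29 and 8.09 against 15.8, 22.1 and 18.9 CPM. In each of these 4 genes, taken from the list by smallest p, all shFgf21 libraries were above all shNC libraries. The highest shNC library was shNC 1 in each. The median over the list was 0.47, and over the leave-outs it ranged from 0.075 without shNC 2 to 1.21 without shNC 1. All 5 T cell attracting chemokines had a higher mean, with a median of 0.58 and leave-out medians from 0.36 without shNC 2 to 0.88 without shNC 1. Cxcl9 and Cxcl10, the interferon gamma induced ligands of CXCR3, overlapped at 175, 53.3 and 119.8 against 195, 202 and 166 CPM and 849.9, 389 and 535 against 861, 847 and 619 CPM.

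All 15 mitosis genes had a higher mean in shFgf21, and 5 had no overlap (5.4% of all tested genes). The median was 0.41. Birc5 (survivin) was at 82.9, 58.8 and 81.04 against 101, 114 and 112 CPM (0.55 ± 0.16 log2, edgeR adjusted p = 0.593), Aurkb (Aurora kinase B) at 48.5, 44.9 and 58.6 against 68.1, 72.6 and 68.1 CPM, and Top2a (topoisomerase II) at 636, 404 and 705 against 717, 1041 and 884 CPM. Of 16 DNA replication genes 14 were higher, with a smaller median of 0.11 and none without overlap. Library medians of the mitosis list were 0.05, -0.35 and 0.29 in shNC and 0.29, 0.55 and 0.43 in shFgf21, which places shNC 2 lowest and shNC 6 level with shFgf21 1. None of the genes in either list passed, and without shNC 2 the medians were 0.24 for mitosis and 0.060 for replication.

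Cholesterol metabolism, which the series studies in T cells, showed no gene past the threshold in the main edgeR test of the tumour libraries alone. Of 25 synthesis and uptake genes 22 had a higher mean, with a median of 0.25. The library medians of the list were 0.13, -0.44 and 0.30 in shNC and 0.14, 0.34 and 0.34 in shFgf21, so shNC 2 alone was low, and without it the list's median was 0.07. Of 7 efflux and storage genes 6 were lower, among them the liver X receptor Nr1h2 at 59.7, 67.9 and 70.3 against 51.4, 48.5 and 55.8 CPM (edgeR adjusted p = 0.760). Abca1, the efflux pump that this receptor controls, was at 3.93, 4.47 and 3.67 against 1.81, 1.76 and 1.71 CPM (edgeR adjusted p = 0.397), without overlap, and it is named after its values were seen. Abca1 passed in the fit of all 4 groups (edgeR adjusted p = 0.0245) and in no leave-out. Soat2, a cholesterol-esterifying enzyme named after its values were seen, was lower and passed in 2 other fits of the tumour libraries. These were DESeq2 (-1.39 log2, DESeq2 adjusted p = 0.0473) and edgeR with the title numbers as a block (-1.81 log2, edgeR adjusted p = 0.0348). Fatty acid synthesis genes were higher for 9 of 11, 4 without overlap (5.4% of all tested genes). On the lower side, 1 had no overlap (6.19%). Scd2, a desaturase, was at 428, 330.0 and 158 against 499.8, 554 and 575 CPM (edgeR adjusted p = 0.730), where shNC 6 was the lowest.

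Several matrix genes had large fold changes, and for some of them the high shNC 1 library set the size. Of 16 collagens 12 were lower, 5 of them without overlap (6.19% of all tested genes), and 4 were higher, 1 of them without overlap (5.4%). The list's median was -0.35. The leave-outs gave medians from -0.59 without shFgf21 1 to -0.21 without shFgf21 2. Col12a1, a fibril-associated collagen, was at 194, 25.7 and 39.8 CPM in the shNC libraries and 7.49, 11.1 and 7.20 CPM in the shFgf21 libraries (-3.32 ± 0.72 log2, edgeR adjusted p = 0.396), and without shNC 1 its log2 fold change was -1.93. Col1a2, a chain of the main fibrillar collagen, was at 1089, 171 and 173 against 162, 118 and 36.9 CPM, with shNC 1 above every other library and shFgf21 1 close to shNC 2 and 6. The basement membrane chains Col4a1 and Col4a2, which sit side by side in the genome, were at 110.0, 82.6 and 50.4 against 44.7, 32.05 and 25.5 CPM and 143, 136 and 99.5 against 87.6, 56.5 and 52.5 CPM, a graded difference in which no single library stood alone (edgeR adjusted p = 0.458 and 0.454). Of 18 mesenchymal and matrix genes 11 were lower, 6 of them without overlap (6.19% of all tested genes), and 7 were higher, 2 of them without overlap (5.4%). Tnc (tenascin C) was at 150.5, 66.2 and 55.7 against 29.1, 21.5 and 29.3 CPM, Lox (lysyl oxidase, which crosslinks collagen) at 84.8, 18.4 and 19.4 against 6.77, 5.73 and 3.97 CPM, Postn (periostin) at 353, 83.8 and 72.6 against 49.8, 44.1 and 18.8 CPM and Tagln, a smooth muscle actin-binding protein, at 22.6, 6.38 and 4.15 against 0.906, 2.02 and 1.34 CPM. In all 4, taken from the list by smallest p, shNC 1 was the highest, and the other shNC libraries still lay above the 3 shFgf21 libraries. Dcn, the fibroblast marker, was at 1766, 1820.1 and 1730.2 against 1333, 1269 and 1258 CPM, with tight groups that did not overlap (-0.46 ± 0.12 log2, edgeR adjusted p = 0.504). Vim, given above, was higher in each shFgf21 library than in any shNC library (edgeR adjusted p = 0.782). The endothelial sum was high in shNC 1 as well, as given above, and the part of other cells in the matrix values was not tested.

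**Figure D5:**
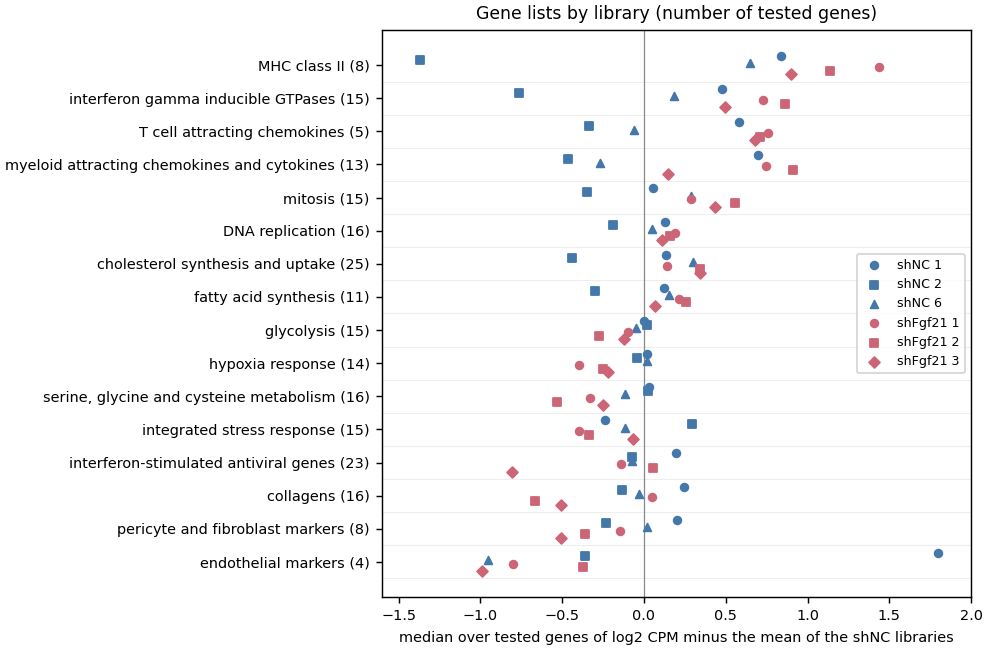
Median over the tested genes of each list of log2 CPM minus the mean of the shNC libraries, with 1 point per library (blue shNC, red shFgf21) and the number of tested genes in brackets. shNC 2 is lowest for MHC class II (-1.37), and shNC 1 is highest for endothelial markers (1.80). The hypoxia, glycolysis and serine list medians are lower in shFgf21 without overlap between the groups. Those of MHC class II, interferon gamma inducible GTPases and T cell attracting chemokines are higher without overlap, by small margins. The other lists shown overlap.

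Other lists gave little. Oxidative phosphorylation genes had a median of 0.04 over 16 genes, p53 targets -0.03 over 12 and RNA interference machinery -0.11 over 8, each with 0 genes past the threshold. The signs of the first 2 medians changed over the leave-outs. Within the last list Ago3 and Ago1, which bind small RNAs, were at 28.2, 32.3 and 33.2 against 22.5, 27.6 and 28.4 CPM and 64.9, 68.1 and 76.5 against 58.8, 61.3 and 65.5 CPM, with overlap. Of 12 antioxidant and iron genes Fth1, the ferritin heavy chain, was at 922, 1065 and 809 against 691, 636 and 713 CPM without overlap (edgeR adjusted p = 0.640). Lef1, a transcription factor of WNT signalling, was at 6.90, 12.4 and 6.49 against 3.56, 2.28 and 3.17 CPM (-1.52 ± 0.33 log2, edgeR adjusted p = 0.396), and shNC 2 was its highest library.

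Single libraries departed from their own group for a set of genes at a mean of at least 20 CPM, chosen for the largest ratio within a group. Eif3j2, a translation factor gene, had 71, 1002 and 1061 against 1037, 0 and 937 counts, low in shNC 1 and at 0 in shFgf21 2, while its close paralog Eif3j1 was at 104, 72.8 and 74.1 against 77.02, 86.8 and 67.97 CPM. Chtf8, a replication clamp loader subunit, was at 108, 197 and 15.4 against 127, 114 and 109.5 CPM, and the gene Gm50241 on the same interval and strand was at 2.21, 1.86 and 106 against 2.54, 2.997 and 3.78 CPM, so the low value of Chtf8 and the high value of Gm50241 fell in the same library, shNC 6. Gm49388, which runs through Setd1a and Hsd3b7, had 311, 573 and 0 against 651, 0 and 635 counts. Hmox1, the heme oxygenase, had 3751, 572 and 482 against 676, 305 and 374 counts, high in shNC 1 only. None of these 4 genes passed the threshold.

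By position, the differences were small. Over 11187 tested genes at a mean of at least 5 CPM, the median log2 fold change per chromosome (the 19 autosomes and X) ran from -0.10 on chromosome 8 to 0.08 on X. The library medians did not overlap between the groups for 6 of these 20 chromosomes, lower in shFgf21 on chromosomes 4, 8 and 14 and higher on 2, 16 and X. On chromosome 8, 199 of 631 genes were on the higher side, with 9 higher and 35 lower at an unadjusted p under 0.05. These counts were 13 and 44 of 705 genes on chromosome 4 and 5 and 20 of 386 on 14. For the chromosomes on the higher side, they were 25 and 20 of 869 on 2, 11 and 4 of 340 on 16 and 11 and 3 of 366 on X. Over all 14950 tested genes, 2.61% were higher and 3.61% lower at that level. The 21 mitochondrial genes had a median of 0.25, with 19 on the higher side, and by library it was 0.10, -0.13 and 0.10 in shNC and 0.11, 0.61 and 0.22 in shFgf21. In windows of 50 neighbouring genes, 1028 in all and stepped so that they share genes, the medians ran from -0.23 to 0.15. In 139 windows (13.5%) the library medians did not overlap between the groups. Of all 14950 tested genes, low ones included, 11.6% did not overlap singly, so these shares rest on unlike measures and gene sets.

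The knockdown effect was compared with that in the 5 libraries labelled as sorted T cells by an interaction term over all 4 groups. Those libraries held myeloid as well as T cell markers: Lyz2, the lysozyme of macrophages, was at 5464 to 8863 CPM and Csf1r at 385 to 757 CPM, and Cd3e at 30.6 to 64.1 CPM. They also held genes abundant in the tumour libraries, with Fn1 (fibronectin) at 4633 to 6149 CPM and Dcn at 502 to 881 CPM. The part of tumour or myeloid RNA in the sorted values below was not tested. The sorted libraries are numbered here in the order of deposition, and the genotype label of sorted shFgf21 2 reads FGF22 Knockdown while its title marks it as sh. Of 17327 genes tested, 1 had an effect that differed (0.00577%), the microRNA gene Mir8114, and 826 had an unadjusted p under 0.05. Of the 5 genes called in tumours, Abl1, S100a3 and Gm41787 had higher means in sorted shFgf21 as well. Abl1 was at 40.5, 40.01 and 142 CPM in sorted shNC and 156 and 139 CPM in sorted shFgf21, so sorted shNC 3 lay in the range of the knockdown (edgeR adjusted p = 0.516 in sorted libraries). S100a3 was at 0.511, 1.07 and 0.651 CPM and 3.53 and 3.25 CPM, without overlap (edgeR adjusted p = 0.130). Gm41787 had 0, 1 and 0 counts in sorted shNC and 12 and 7 counts in sorted shFgf21, too few to be tested there. Gm20716 did not keep its direction, at 36.7, 0 and 11.8 CPM in sorted shNC and 0 in both sorted shFgf21 libraries. Gm45713, lower in shFgf21 tumours, had 0, 0 and 48 counts in sorted shNC and 47 and 0 counts in sorted shFgf21. The effect on Abl1 was 0.75 ± 0.58 larger in tumours on the log2 scale (SE; edgeR interaction, unadjusted p = 0.223), which did not pass.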

How the data were processed

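RNA sequencing of 6 MC38 tumour libraries (3 shNC, 3 shFgf21) was compared, with 5 sorted T cell libraries used only for the contrast between kinds of sample. The authors deposited 1 table of counts per gene and FPKM values for the 11 libraries, per the file headers. The deposited FPKM values were not used in any test. Coordinates are on mm10, per the submitters' processing notes. The aligner, the counting program and whether it used strand: not given in the sources used here. In the table, 55141 of 55487 gene IDs were found in GENCODE M21, which gave coordinates and strands.

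Genes were filtered with filterByExpr, scaled by TMM and tested with edgeR's quasi-likelihood test (edgeR 4.0.16, R 4.3.3) on the 6 tumour libraries with Benjamini-Hochberg adjustment and a threshold of 0.05. SE is the standard error of the log2 fold change. Values are CPM on TMM-scaled library sizes, written for the libraries shNC 1, 2 and 6 against shFgf21 1, 2 and 3. Alternatives were DESeq2 1.42.0, limma 3.58.1 voom with quality weights, other scaling, filters and moderation, a fit of all 4 groups, a block on the numbers in the titles and leaving out each library. The scripts were tested on simulated data. A count of 0 was taken to allow up to 3 counts, and intervals at a level of 0.95 cover counting error only. No pair of libraries of 1 group agreed within sampling noise.

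The libraries and the 49 gene lists were chosen with earlier results of these data known. Named genes were Fgf21, the genes past the threshold and a set of receptors and markers. Up to 15 genes per direction were added by smallest p among named genes without overlap at a mean of at least 10 CPM. From each list, up to 4 genes at a mean of at least 5 CPM were taken by smallest p. The separation of these list genes follows in part from that choice, and they are not typical members. The last were 10 genes at a mean of at least 20 CPM that varied most within a group. The text describes part of these, and some listed genes are not reported here. Genes that overlap or copy a named gene, and the other genes of the lists, were named after their values were seen.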

Additional observations from a re-analysis of the deposited data

Results flagged for a closer look

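The knockdown effect on Mir8114, a microRNA gene on chromosome 1, differed between tumour and sorted libraries by 5.93 ± 0.586 on the log2 scale (SE; edgeR interaction, adjusted p = 0.00794). In the tumour libraries it had 73, 53 and 63 against 60, 53 and 56 counts, which overlapped. In the sorted libraries it had 68, 60 and 94 counts in shNC and 1 count in each of the 2 shFgf21 libraries. A value of 1 was also what 329 other genes, 196 of them microRNA genes, listed in all 6 tumour libraries. No other gene passed this test. Genes that overlap Mir8114 were not looked up, and whether its counts come from the microRNA itself was not tested. The mature RNA, shown with its seed (bases 2 to 8) in capitals as RefSeq gives it (GRCm38.p6, chr1:153899989-153900009, plus strand), is the following.
mmu-miR-8114: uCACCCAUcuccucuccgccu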

How the results depend on the processing

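The number of genes past the threshold moved with the test more than with the scaling. Against 4 higher and 1 lower, the filter at a mean of 5 CPM left 1 and 0, limma voom with quality weights gave 13 and 8, the fit of all 4 groups 12 and 14, robust moderation 6 and 2, and DESeq2 42 and 73. With the title numbers as a replicate block, edgeR gave 46 and 85, but only the numbers 1 and 2 occur in both groups, and the deviations of same-numbered libraries correlated at 0.165 and -0.153, so the numbers were not taken as pairs. Leaving out 1 library gave 0 to 6 higher and 0 to 2 lower genes, with 0 in both directions without shNC 6 and without shFgf21 3 by edgeR, where 967 and 746 genes had an unadjusted p under 0.05. Abl1 did not pass in those fits or in the fit of all 4 groups, and S100a3 did not pass with the filter at 5 CPM or in 5 of the 6 leave-outs. The interaction count was 4 with no filter and 0 to 4 over the leave-outs, 0 without either sorted shFgf21 library. Of the genes described, the 4 in which single libraries stood apart changed sign in some fits. With the replicate block the log2 fold change was -0.28 for Chtf8, -1.07 for Eif3j2 and -2.14 for Gm49388, and with voom -2.07 for Eif3j2. Over the leave-outs it ran from -0.38 to 0.94 for Chtf8, -0.42 to 0.68 for Eif3j2 and -2.35 to 0.036 for Hmox1. Another scaling moved the median of all genes by 0.0057 on the log2 scale. The cause of these differences was not tested. With 3 libraries a group and no note of separate animals, and with 3 counts of Fgf21 in all, the libraries limit what can be said of its loss.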

Other observations

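The mitochondrial gene mt-Atp6 had 4170, 6743 and 7232 against 22458, 40512 and 6633 counts, high in shFgf21 1 and 2 only. It is given here after its values were seen.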
